A study of Mus musculus with 4 samples.

Results

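The semaphorins, ephrins and Slits are families of guidance ligands that steer growing axons, migrating cells and vessels, and the plexins, Eph receptors and Robo receptors are the surface receptors that read them. Members were taken by a rule on gene symbols that uses no measured value, though earlier results of these data were known. The members were every gene of the array annotation with a single symbol belonging to the semaphorin, plexin, Eph, ephrin, Slit or Robo families. They came to 58 of 20680 genes with a single symbol, namely 20 semaphorins, 9 plexins, 8 ephrins, 14 Eph receptors, 3 Slits and 4 Robo receptors. All 58 protein-coding symbols of these families in the RefSeq annotation of mouse assembly GRCm38.p6 were found on the array. The members were read by 126 probe sets, 40 members had more than 1, and each gene is given by its brightest probe set, the one with the largest mean over the arrays.

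RNA was measured in cardiac fibroblasts cultured from mice that lack the plasma membrane calcium ATPase PMCA4, a pump that exports calcium from the cell, to ask how the loss of this pump alters their transcripts. There were 4 Affymetrix arrays, 1 for each condition: PMCA4-/- fibroblasts given phenylephrine, untreated PMCA4-/- fibroblasts, WT fibroblasts given phenylephrine and untreated WT fibroblasts. All cells came from male mice 3 months old and were grown for 4 days, and the treated cells spent 72 h in 30 µM phenylephrine, which activates α1-adrenergic receptors. The PMCA4-/- mice carried a deletion of the start codon region in every tissue, the controls described in the study's methods were WT littermates, and RNA of 3 batches of cells was pooled. No value therefore has a replicate error, genotype and pool of cells cannot be told apart, and in such bulk RNA fewer cells of a type and less RNA per cell cannot be told apart either. Atp2b4, which encodes PMCA4, had a single probe set with 37.9 in phenylephrine-treated and 31.6 in untreated PMCA4-/- cells, against 23.3 in phenylephrine-treated and 19.6 in untreated WT cells. These values lie near or below the median of an array, and it is not known here whether the probe set lies inside the deletion, so it is no check of the labels.

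Intensities are those estimated by PUMA, a program that carries the uncertainty of the probes into the estimate, on a linear scale in arbitrary units, and the median of an array over all its probe sets was 34.0. A gene was tested when its mean intensity over the 4 arrays exceeded 35.1, the median over all probe sets. This kept 40 of the 58 members (69.0%) and 11462 of all 20680 genes (55.4%). Values below the median of their array were raised to it before a ratio was taken. A ratio with such a dim side is a lower bound for the PUMA values only and is written as at least so many fold. Another estimate of the same probe set can give a smaller ratio. Probes of different genes bind with different strength, so intensities are compared between arrays for 1 gene and not between genes.

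Class 3 semaphorins are secreted and bind neuropilins, which pair with A-type plexins to carry the signal, while the other vertebrate semaphorins are held in or at the membrane and bind plexins directly. Plexins act on small GTPases and loosen the hold of a cell on its matrix. Ephrins and Eph receptors both sit in the membrane, so that signals pass in both directions where cells touch. The A-type ephrins are held by a lipid anchor and the B-type ephrins span the membrane. Slits are large secreted proteins of the matrix that repel cells carrying Robo receptors. In the developing heart these systems take part in outflow tract septation, the division of arteries from veins, and the routing of sympathetic nerves.

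In the main comparison, 6 of the 40 tested members (15%) were at least 2-fold higher in PMCA4-/- than in WT cells both without and with phenylephrine, where 3.87% of all tested genes were. These were the ephrins Efna5 and Efnb2, the Eph receptors Epha4 and Ephb6, and the semaphorins Sema3f and Sema4d. A further 5 members (12.5%) were at least 2-fold lower in both pairs of arrays, where 4.07% of all tested genes were. These were the receptors Robo1 and Epha7 and the semaphorins Sema3a, Sema3b and Sema6a. The filter took the mean over all 4 arrays, so a gene dim in 1 genotype could pass it through the other alone. Sema3f, Sema4d and Ephb6 were under the array median in both WT samples, and Robo1 and Sema6a in both PMCA4-/- samples. Sema3b was under it in untreated PMCA4-/- cells. The same filter held for all tested genes, so both shares depend on it. The median log2 difference of the 40 members was 0.27 without and 0.26 with phenylephrine, beside -0.01 and -0.01 over all tested genes, so the members stood on both sides of a centre slightly above 0.

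**Figure D1:**
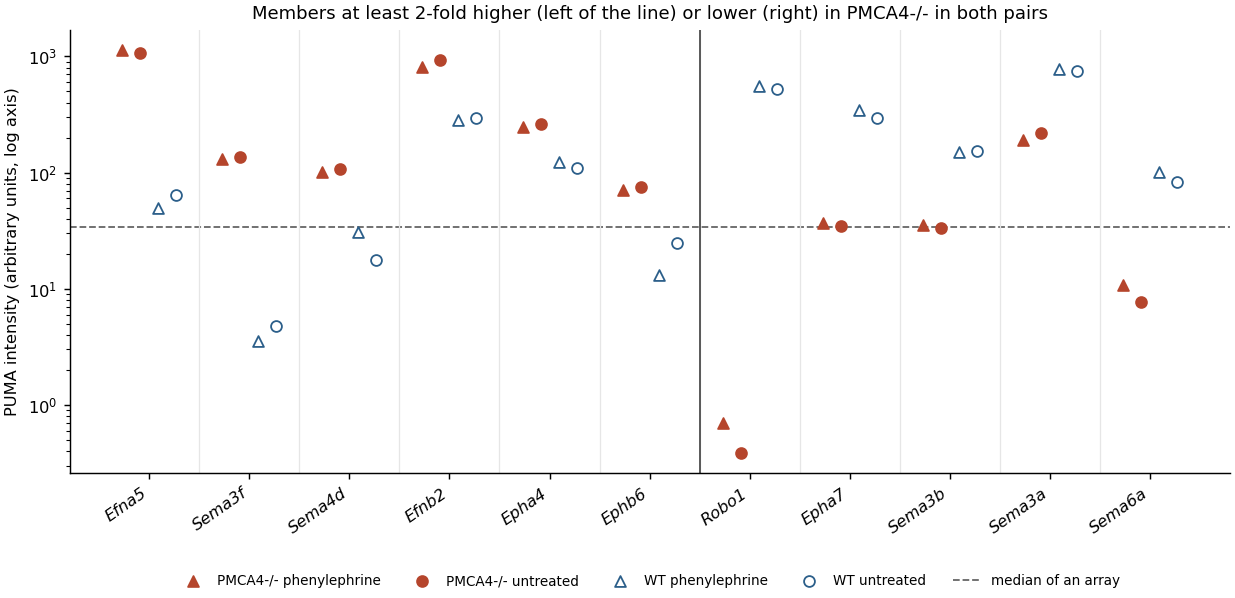
PUMA intensity (log axis) of the 11 members that passed 2-fold in the same direction without and with phenylephrine, with 1 symbol per array. Filled symbols are PMCA4-/- arrays, open symbols are WT arrays, triangles are phenylephrine-treated cells, circles are untreated cells, and the dashed line is the median of an array at 34.0. In each gene the 2 arrays of a genotype lie apart from those of the other genotype, as for Robo1 at 0.385 and 0.702 in PMCA4-/- against 528 and 557 in WT cells. Dim values of 1 genotype can still differ, as for Ephb6 in WT cells, at 24.9 without and 13.0 with phenylephrine.

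The 3 members at least 8-fold apart in both pairs were Efna5, Epha7 and Robo1, and the 250 bases before the start of each gene are shown because they are the nearest regulatory sequence of the genes with the largest differences. The sequences are those of RefSeq on GRCm38.p6, 5′ to 3′ on the strand of the gene: chr17:62881318-62881567 on the minus strand for Efna5, chr4:28812881-28813130 on the plus strand for the first of 2 listed starts of Epha7, and chr16:72662899-72663148 on the plus strand for Robo1. Capitals mark matches, on either strand, to the GC box GGGCGG, the CCAAT box, the TATA box TATAAA or TGGAAA, the core bound by the calcium-regulated factor NFAT.
Efna5: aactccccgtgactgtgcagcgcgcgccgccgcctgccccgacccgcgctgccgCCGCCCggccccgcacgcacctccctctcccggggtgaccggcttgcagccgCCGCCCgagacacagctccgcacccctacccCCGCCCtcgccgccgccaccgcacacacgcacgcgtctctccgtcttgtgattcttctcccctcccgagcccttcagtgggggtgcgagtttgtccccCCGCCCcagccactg
Epha7: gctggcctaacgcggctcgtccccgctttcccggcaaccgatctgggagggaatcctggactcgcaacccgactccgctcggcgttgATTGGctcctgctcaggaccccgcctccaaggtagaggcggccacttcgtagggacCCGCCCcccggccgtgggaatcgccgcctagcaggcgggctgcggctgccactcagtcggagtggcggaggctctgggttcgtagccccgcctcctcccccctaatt
Robo1: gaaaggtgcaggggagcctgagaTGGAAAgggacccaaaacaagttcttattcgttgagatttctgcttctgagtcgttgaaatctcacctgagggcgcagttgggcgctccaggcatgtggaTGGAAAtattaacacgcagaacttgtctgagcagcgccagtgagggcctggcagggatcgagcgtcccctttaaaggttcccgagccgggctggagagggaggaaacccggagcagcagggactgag
The Efna5 window held 4 GC boxes, all on the opposite strand, and the Epha7 window held 1 GC box and 1 CCAAT box, whereas the Robo1 window held 2 TGGAAA matches and neither of those boxes. None of the 3 held TATAAA. Over all 32851 RefSeq windows of the same length, 32.7% held the GC box, 33.8% the CCAAT box, 12.4% TATAAA and 18.6% TGGAAA. The GC content was 74.8% for Efna5, 69.2% for Epha7 and 56% for Robo1, against a median of 52.4% over all windows, and the CG steps numbered 32 for Efna5, 25 for Epha7 and 11 for Robo1, against a median of 6. A match describes the letters of the window, and binding was not measured.

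Among the secreted semaphorins the differences ran both ways. Sema3f, a repellent ligand that signals through neuropilin 2, had 137 in untreated PMCA4-/- cells against 4.76 in untreated WT cells, and 130 in phenylephrine-treated PMCA4-/- cells against 3.54 in their WT counterparts. The difference was at least 4.02-fold upwards without phenylephrine and at least 3.81-fold with it, and its transcript was below the median of the array in both WT samples. The other 2 probe sets of Sema3f had 126 and 117 in untreated PMCA4-/- cells against 11.6 and 0.0947 in untreated WT cells, all dim in WT by PUMA. With the other deposited estimate, Robust Multiarray Average (RMA), the first of these 2 was not dim in WT, with 1154 in untreated PMCA4-/- cells against 812 in untreated WT cells and 1097 in phenylephrine-treated PMCA4-/- cells against 664 in treated WT cells, log2 differences of 0.51 and 0.72. The brightest probe set had RMA values of 219 and 210 in PMCA4-/- cells without and with phenylephrine, against 74.4 and 55.2 in WT cells. Without phenylephrine that is 2.95-fold higher, less than the bound by PUMA.

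Sema3a, the classical neuropilin 1 ligand that patterns sympathetic nerves in the heart, was lower. It had 218 in untreated PMCA4-/- cells against 752 in untreated WT cells, and 191 in phenylephrine-treated PMCA4-/- cells against 773 in treated WT cells, which is 3.45-fold and 4.04-fold lower. Its second probe set had 43.0 in PMCA4-/- against 179 in WT cells without phenylephrine and 40.5 in PMCA4-/- against 193 in WT cells with it. Sema3b, a secreted relative whose human gene lies in a region lost in lung tumours, had 33.3 in untreated PMCA4-/- cells against 153 in untreated WT cells and 35.2 in phenylephrine-treated PMCA4-/- cells against 149 in treated WT cells. It was at least 4.48-fold lower without phenylephrine and 4.24-fold lower with it, with the PMCA4-/- values at the level of the array median. The same probe set had RMA values of 108.5 and 120 in PMCA4-/- cells against 290.5 and 270.3 in WT cells. By RMA it was thus 2.68-fold and 2.25-fold lower.

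The other class 3 members lay between these. Sema3c, which guides neural crest cells into the outflow tract, had 3029 in untreated PMCA4-/- cells against 1698 in untreated WT cells and 2741 in phenylephrine-treated PMCA4-/- cells against 1672 in treated WT cells, 1.78-fold and 1.64-fold higher. Its second probe set had 189 and 171 in PMCA4-/- cells without and with phenylephrine, against 75.6 and 67.4 in WT cells, 2.50-fold and 2.54-fold higher. Sema3e, which binds plexin D1 without a neuropilin, was 1.79-fold and 1.83-fold higher, between 67.6 and 72.8 in PMCA4-/- cells and between 37.0 and 40.6 in WT cells. Sema3d had 109 in untreated PMCA4-/- cells against 117 in untreated WT cells, and 81.1 in phenylephrine-treated PMCA4-/- cells against 126 in treated WT cells, log2 differences of -0.10 and -0.64. Sema3g stayed under the filter, with 1.24 to 21.0 on the 4 arrays.

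In the order of genes along chromosome 9 of GRCm38.p6, Sema3b and Sema3f lie on either side of Gnai2, Slc38a3 and Gnat1, and the 2 semaphorins differed in opposite directions. Gnai2, a G protein subunit, had 4061 and 3800 in PMCA4-/- cells without and with phenylephrine, against 4475 and 4793 in WT cells, 1.10-fold and 1.26-fold lower. The other 2 genes between them were dim, at 0.773 to 4.86 on all arrays. These neighbours were chosen after their values were seen.

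Of the 13 membrane-bound semaphorins 9 were tested, and 1 was higher and 1 lower at 2-fold in both pairs, beside 3.87% and 4.07% of all tested genes. Sema4d, the ligand of plexin B1, had 107 in untreated PMCA4-/- cells against 17.8 in untreated WT cells, and 100.4 in phenylephrine-treated PMCA4-/- cells against 30.8 in treated WT cells. This is at least 3.14-fold and at least 2.95-fold higher, again with both WT values under the array median. Sema6a, a transmembrane ligand of A-type plexins, had 7.73 in untreated PMCA4-/- cells against 83.4 in untreated WT cells, and 10.8 in phenylephrine-treated PMCA4-/- cells against 102 in treated WT cells, at least 2.45-fold and at least 2.99-fold lower. Its other 2 probe sets were dim on all arrays, at 0.675 to 12.6.

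Sema5a, which carries thrombospondin repeats, had 1648 and 1491 in PMCA4-/- cells without and with phenylephrine, against 1621 and 1675 in WT cells. The genotypes overlapped, and the log2 differences were 0.02 and -0.17. Sema6d, a ligand of plexin A1 needed for heart tube looping in the chick, had 526 and 527 in PMCA4-/- cells without and with phenylephrine, against 609 and 687 in WT cells, 1.16-fold and 1.30-fold lower. Sema7a, a lipid-anchored semaphorin, was 1.99-fold higher without phenylephrine but 1.37-fold higher with it, since its WT intensity was 87.2 in treated and 64.2 in untreated cells. Sema4a was 1.65-fold and 1.69-fold higher and Sema4b 1.30-fold and 1.39-fold higher, while Sema4c and Sema4g lay within a log2 difference of 0.32 in both pairs. All 4 RMA values of the Sema4a probe set, 9.23 to 12.75, were under the RMA median of an array. The 4 others, Sema4f, Sema5b, Sema6b and Sema6c, ranged from 0.514 to 20.4 and were not tested.

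Of the 8 tested plexins, which receive these ligands, 0 passed 2-fold upwards in both pairs and 0 passed it downwards, where 3.87% and 4.07% of all tested genes did, so a count of 0 of 8 is near the background. Plxnb2 had 1796 in untreated PMCA4-/- cells against 1455 in untreated WT cells and 1874 in phenylephrine-treated PMCA4-/- cells against 1299 in treated WT cells, 1.23-fold and 1.44-fold higher. Plxna1, a partner of neuropilins, had 876 and 819 in PMCA4-/- cells without and with phenylephrine, against 696 and 679 in WT cells, 1.26-fold and 1.21-fold higher. Plxna2 ran the other way, with 612 and 574 in PMCA4-/- cells against 927 and 916 in WT cells, 1.51-fold and 1.60-fold lower. Plxnd1, the receptor of Sema3e, was alike on all arrays, with 417 and 412 in PMCA4-/- cells against 432 and 405 in WT cells. The log2 differences of the 8 tested plexins ran from -0.82 to 0.55 without and from -0.67 to 0.53 with phenylephrine. Plxnc1, the receptor of Sema7a, ranged from 11.5 to 42.0 and was not tested.

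**Figure D2:**
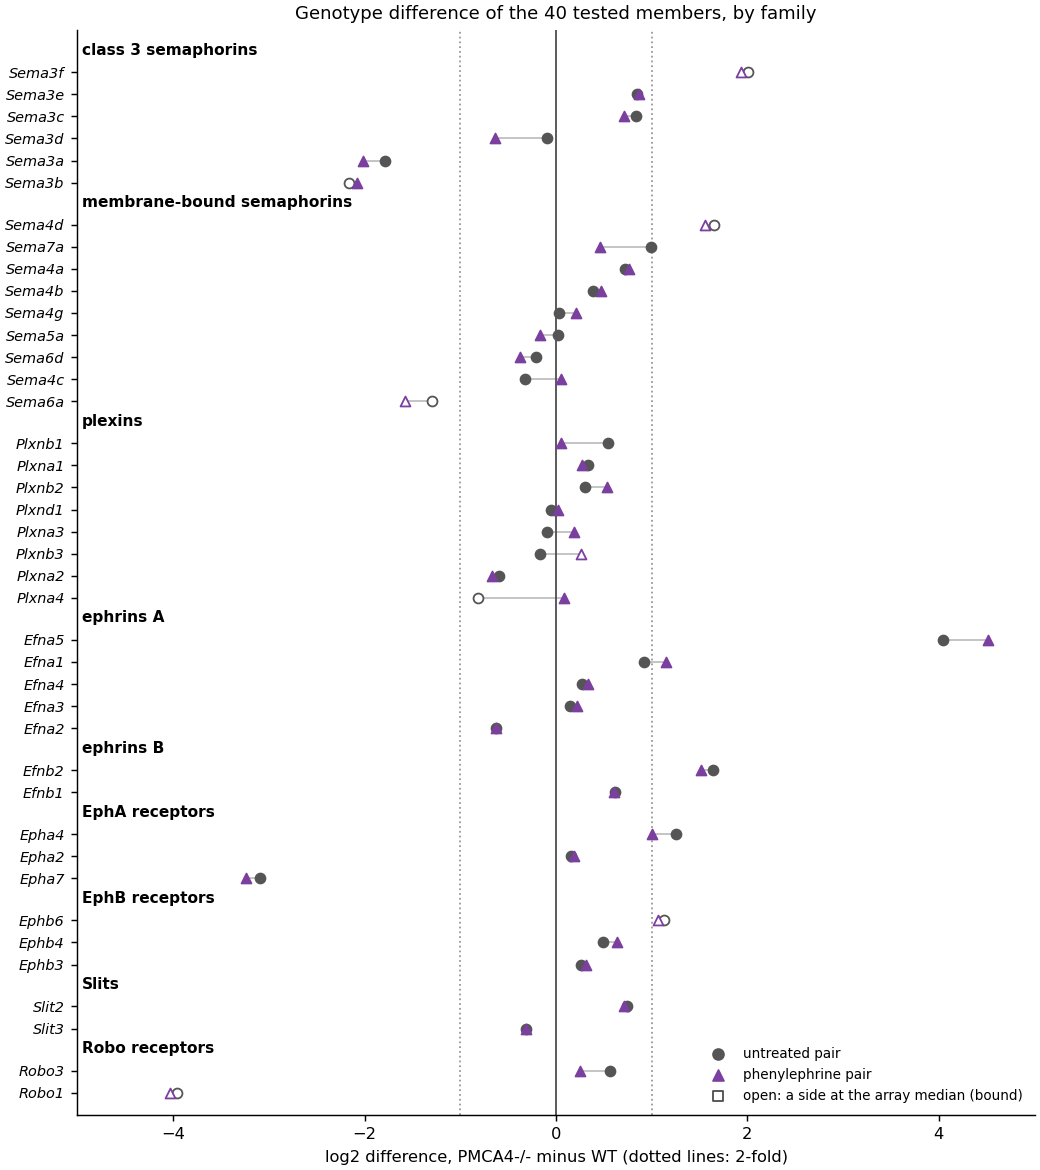
Log2 difference of PMCA4-/- minus WT intensity for each of the 40 tested members, by family, in the untreated pair (grey circles) and the phenylephrine pair (purple triangles). Open symbols have a side raised to the array median and are bounds for PUMA only, dotted lines mark 2-fold, and the members past them in both pairs run from Robo1 at -3.96 and -4.04 to Efna5 at 4.04 and 4.51.

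Of 20 co-receptors and signal transducers of the semaphorin pathway, 17 were tested, and in both pairs 2 passed 2-fold upwards and 2 downwards, beside 3.87% and 4.07% of all tested genes. Nrp2, the neuropilin that binds Sema3f, had 249 in untreated PMCA4-/- cells against 1239 in untreated WT cells and 204 in phenylephrine-treated PMCA4-/- cells against 1064 in treated WT cells, 4.97-fold and 5.21-fold lower. Crmp1, a cytoskeletal mediator of the Sema3a signal, had 17.3 and 15.9 in PMCA4-/- cells against 104 and 90.9 in WT cells, at least 3.06-fold and at least 2.67-fold lower. Met, the hepatocyte growth factor receptor that associates with B-type plexins, had 720 and 785 in PMCA4-/- cells against 229 and 226 in WT cells, 3.14-fold and 3.48-fold higher. Rnd1, a small GTPase that binds plexins, had 197 and 184 in PMCA4-/- cells against 57.2 and 64.3 in WT cells, 3.45-fold and 2.87-fold higher. Nrp1, the neuropilin that binds Sema3a, had 2168 and 2044 in PMCA4-/- cells against 2164 and 2311 in WT cells, where the genotypes overlapped. It was named after its values were seen.

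In the ephrin family both members that were at least 2-fold apart were higher in PMCA4-/- cells. Efna5, a lipid-anchored ephrin that repels axons and sorts cells, had 1063 in untreated PMCA4-/- cells against 64.6 in untreated WT cells, and 1127 in phenylephrine-treated PMCA4-/- cells against 49.5 in treated WT cells. It was 16.4-fold and 22.8-fold higher, the largest difference upwards among the 40 tested members, and every value was above the array median. Its second probe set was dim on all arrays, at 2.90 to 7.84, so the difference rests on 1 probe set. The log2 differences, 4.04 and 4.51 here, were 3.58 and 3.73 with RMA and 2.02 and 2.25 with the median over both probe sets. Efnb2, the transmembrane ephrin that marks arteries, had 927 in untreated PMCA4-/- cells against 297 in untreated WT cells and 818 in phenylephrine-treated PMCA4-/- cells against 286 in treated WT cells, 3.12-fold and 2.86-fold higher. A second probe set of Efnb2 had 483 against 167 without and 462 against 119 with phenylephrine, PMCA4-/- against WT, while another had 37.7 against 28.8 and 42.5 against 39.2.

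The other ephrins differed less. Efna1 had 184 in untreated PMCA4-/- cells against 97.4 in untreated WT cells and 187 in phenylephrine-treated PMCA4-/- cells against 84.1 in treated WT cells, 1.90-fold and 2.22-fold higher, just short of 2-fold in the first pair. Efnb1 was 1.54-fold and 1.52-fold higher, at 372 in both PMCA4-/- samples against 242 and 245 in WT cells. Efna2 was lower, with 75.4 and 88.8 in PMCA4-/- cells against 116 and 137 in WT cells, 1.54-fold and 1.55-fold. Efna1, Efna3 and Efna4 lie side by side on chromosome 3, and Efna3 and Efna4 were 1.10-fold to 1.26-fold higher over both pairs. Efnb3, at 27.3 to 35.6, was not tested.

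Of the 14 Eph receptors only 6 passed the filter. Epha7, a receptor of A-type ephrins, had 34.7 in untreated PMCA4-/- cells against 296 in untreated WT cells, and 36.8 in phenylephrine-treated PMCA4-/- cells against 347 in treated WT cells. It was 8.52-fold and 9.43-fold lower, with the PMCA4-/- values just above the array median, and its next probe set had 17.0 and 13.8 in PMCA4-/- cells against 156 and 164 in WT cells. Epha4, which binds ephrins of both types, was higher, with 260.3 in untreated PMCA4-/- cells against 109 in untreated WT cells and 248 in phenylephrine-treated PMCA4-/- cells against 123 in treated WT cells, 2.38-fold and 2.01-fold. Of its 4 other probe sets 3 were above the filter. All 3 were higher in both pairs, but 0 passed 2-fold in both. Ephb6, an Eph receptor without kinase activity, had 74.5 and 71.3 in PMCA4-/- cells without and with phenylephrine, against 24.9 and 13.0 in WT cells, at least 2.19-fold and at least 2.10-fold higher.

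Ephb4, the venous partner of Efnb2, was 1.41-fold and 1.56-fold higher, with 288 and 302 in PMCA4-/- cells against 205 and 194 in WT cells. Ephb3 had log2 differences of 0.26 and 0.32, and Epha2 was 1.11-fold and 1.14-fold higher. The 6 other EphA receptors, Epha1, Epha3, Epha5, Epha6, Epha8 and Epha10, ranged from 0.327 to 42.0 over the arrays, and Ephb1 and Ephb2 from 1.33 to 18.5. For these 8 receptors the arrays give no usable difference.

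Of 18 transducers of ephrin and Eph signals 10 were tested, and in both pairs 0 passed 2-fold upwards and 0 downwards, which is near the 3.87% and 4.07% of all tested genes. The largest differences were those of Tiam1, an exchange factor of Rac, 1.61-fold and 1.99-fold higher, and Vav3, an exchange factor of small GTPases, 1.92-fold and 1.51-fold higher. Fyn, a kinase of the Src family, was 1.48-fold and 1.44-fold higher, and Adam10, a protease that cuts ephrins off the surface, was 1.24-fold and 1.47-fold lower.

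Of the 3 Slits, 2 were tested, and they differed in opposite directions by less than 2-fold. Slit3 had 2467 in untreated PMCA4-/- cells against 3057 in untreated WT cells and 2554 in phenylephrine-treated PMCA4-/- cells against 3167 in treated WT cells, 1.24-fold lower in both pairs. Slit2 had 2260 in untreated PMCA4-/- cells against 1351 in untreated WT cells and 2162 in phenylephrine-treated PMCA4-/- cells against 1317 in treated WT cells, 1.67-fold and 1.64-fold higher. Slit1, at 5.46 or less, was not tested.

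Their receptor Robo1 differed most among the members that were lower. It had 0.385 in untreated PMCA4-/- cells against 528 in untreated WT cells, and 0.702 in phenylephrine-treated PMCA4-/- cells against 557 in treated WT cells, at least 15.5-fold and at least 16.4-fold lower. With RMA the same probe set had 9.79 in untreated PMCA4-/- cells against 462 in untreated WT cells and 7.03 in phenylephrine-treated PMCA4-/- cells against 575 in treated WT cells. The second probe set of Robo1 was dim on all arrays, at 2.36 to 12.5 with PUMA, so the difference rests on 1 probe set. Robo3, a divergent family member, had 86.3 and 88.0 in PMCA4-/- cells without and with phenylephrine, against 58.5 and 73.8 in WT cells, 1.47-fold and 1.19-fold higher. Robo2 and the endothelial receptor Robo4 ranged from 0.416 to 23.1 and were not tested.

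On chromosome 16 Robo1 lies between Robo2 and Gbe1, in the order of protein-coding genes of GRCm38.p6. Gbe1, the glycogen branching enzyme, had 110 in untreated PMCA4-/- cells against 265 in untreated WT cells and 136 in phenylephrine-treated PMCA4-/- cells against 307 in treated WT cells, 2.41-fold and 2.26-fold lower. Cadm2, an adhesion molecule 3 genes from Robo1 on the same side, had 0.277 and 0.0763 in PMCA4-/- cells against 1928 and 2143 in WT cells, at least 56.7-fold and at least 63.1-fold lower. Farther out on that side Vgll3 and Chmp2b, 5 and 6 genes away, were within 1.10-fold in both pairs. On the other side the tested genes up to 8 genes away were Hspa13, 1.46-fold and 1.65-fold lower, Nrip1 and Usp25, within 1.21-fold in both pairs, and Cxadr, higher by log2 differences of 1.41 and 1.45. These neighbours were looked at after the values of Robo1 were seen.

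Of 12 transducers and co-receptors of the Slit and Robo pathway 11 were tested, and in both pairs 1 passed 2-fold upwards and 0 downwards, beside 3.87% and 4.07% of all tested genes. Sdc1, a proteoglycan whose heparan sulfate chains can bind Slits, had 1228 in untreated PMCA4-/- cells against 264 in untreated WT cells and 1161 in phenylephrine-treated PMCA4-/- cells against 300.4 in treated WT cells, 4.65-fold and 3.87-fold higher. Enah, an actin regulator, was 1.53-fold and 1.64-fold lower, while Usp33, an enzyme that removes ubiquitin from Robo1, and Vasp, a relative of Enah, were 1.43-fold and 1.36-fold and 1.24-fold and 1.43-fold higher.

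The netrins and their receptors, another guidance system, were followed alongside. Of 17 measured genes 9 were tested, and in both pairs 1 passed 2-fold upwards and 2 downwards, again beside 3.87% and 4.07% of all tested genes. Flrt2, a repulsive ligand of Unc5 receptors, had 64.0 in untreated PMCA4-/- cells against 2229 in untreated WT cells and 72.9 in phenylephrine-treated PMCA4-/- cells against 2256 in treated WT cells, 34.8-fold and 31.0-fold lower. Flrt3, its relative that associates with Robo1, had 69.8 and 71.8 in PMCA4-/- cells against 173 and 164 in WT cells, 2.48-fold and 2.29-fold lower. Ntn4, a netrin of basement membranes, had 173 and 216 in PMCA4-/- cells against 0.279 and 0.470 in WT cells, at least 5.10-fold and at least 6.36-fold higher. The netrin receptor Unc5b was 1.68-fold and 1.63-fold higher.

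Across the 40 tested members the genotypes differed by a median absolute log2 value of 0.61 without and 0.62 with phenylephrine, beside 0.29 in both pairs over all tested genes. In 34 of the 40 the sign was the same in both pairs, a count for which no share over all tested genes was taken. The 2 arrays of each genotype correlated at 0.995 over all tested genes, so the 2 pairs are not separate evidence. A set of 10 members stayed under a log2 difference of 0.32 in both pairs, beside 44.5% of all tested genes, and these were Efna3, Epha2, Ephb3, Plxna3, Plxnb3, Plxnd1, Sema4c, Sema4g, Sema5a and Slit3. By role, 4 of 24 tested ligands passed 2-fold upwards and 3 downwards, and 2 of 16 tested receptors passed it upwards and 2 downwards, beside 3.87% upwards and 4.07% downwards over all tested genes.

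A limma fit of genotype and treatment to the 4 arrays called 20 members higher and 9 lower in PMCA4-/- cells at an adjusted p below 0.05. Of all tested genes it called 24.5% higher and 25.7% lower, so a call is common on these arrays. With 1 residual degree of freedom its error is the gap between the genotype differences of the 2 treatments and not a spread between cultures. All 11 members past 2-fold were among its calls. They were chosen from the same 4 arrays for large differences of the same sign in both pairs, so this overlap is no separate evidence. The 18 others called had smaller differences, among them Slit2, Sema3c and Plxna2. For Efna5 the fitted log2 difference was 4.28 with a standard error of 0.14 and a limma adjusted p of 0.000495.

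RMA gave the same direction for the 11 members past 2-fold in both pairs. For 8 of them it also passed 2-fold in both pairs, and the exceptions were Epha4, with RMA log2 differences of 1.05 and 0.96, Ephb6, with 0.58 and 0.86, and Sema4d, with 1.14 and 0.97. Of the 20 other probe sets of these members, 10 were above the filter with PUMA, and by that estimate all 10 had the same direction in both pairs and 6 passed 2-fold in both.

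**Figure D3:**
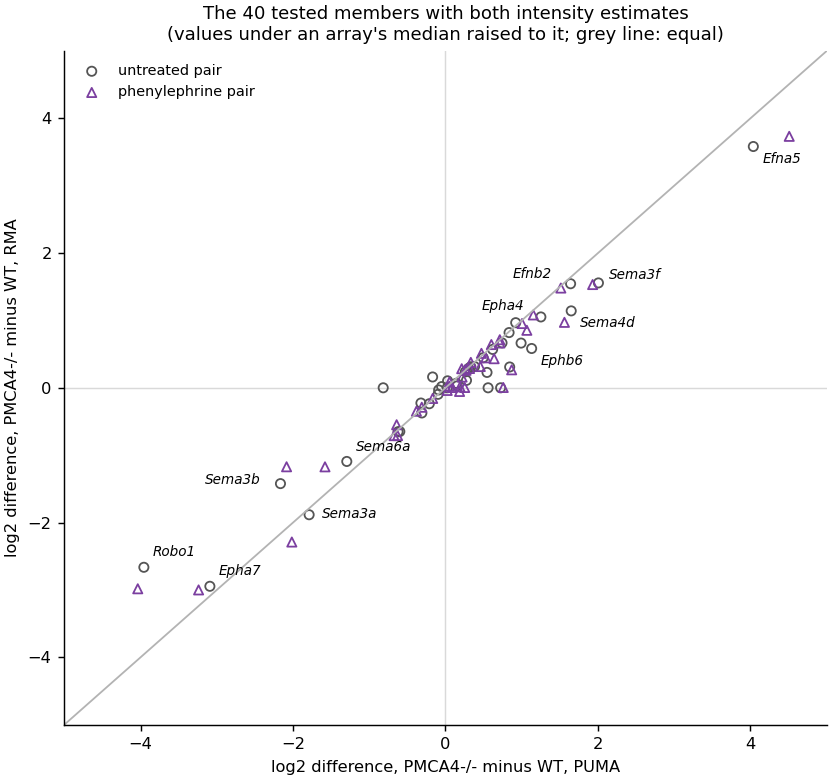
Log2 difference of PMCA4-/- minus WT for the 40 tested members with PUMA intensities (x axis) and RMA intensities (y axis), in the untreated pair (circles) and the phenylephrine pair (triangles). Values under the median of their array were raised to it in both estimates, the grey line marks equal differences, and the named members keep their side of 0, with Efna5 at 4.04 by PUMA and 3.58 by RMA in the untreated pair.

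Phenylephrine left the members close to their untreated levels. Of the 40 tested members, 0 passed 1.5-fold upwards and 0 downwards with phenylephrine in both genotypes, and the same held for 0% and 0% of all tested genes. At a lower threshold, a log2 difference of 0.32, again 0 members were higher and 0 lower in both genotypes, where 0.192% of all tested genes were higher and 0.157% lower. The median absolute log2 difference with phenylephrine was 0.09 in PMCA4-/- and 0.10 in WT cells, beside 0.08 and 0.08 over all tested genes. The sign differed between the genotypes in 21 of the 40 members, again with no share over all tested genes to set beside it.

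Single members moved by more in 1 genotype. In PMCA4-/- cells Sema3d had 81.1 with phenylephrine against 109 without, a log2 difference of -0.43. In WT cells Sema7a had 87.2 with phenylephrine against 64.2 without, a log2 difference of 0.44, and Robo3 had 73.8 against 58.5, a difference of 0.33. Efna5 in WT cells had 49.5 with phenylephrine against 64.6 without, a difference of -0.39, while in PMCA4-/- cells it had 1127 against 1063. With RMA, not raised to the array median, the log2 differences were -0.29 for Sema3d in PMCA4-/- cells. In WT cells they were 0.09 for Sema7a, 0.24 for Robo3 and -0.08 for Efna5. With 1 array on each side, none of these changes can be set against a replicate spread.

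**Figure D4:**
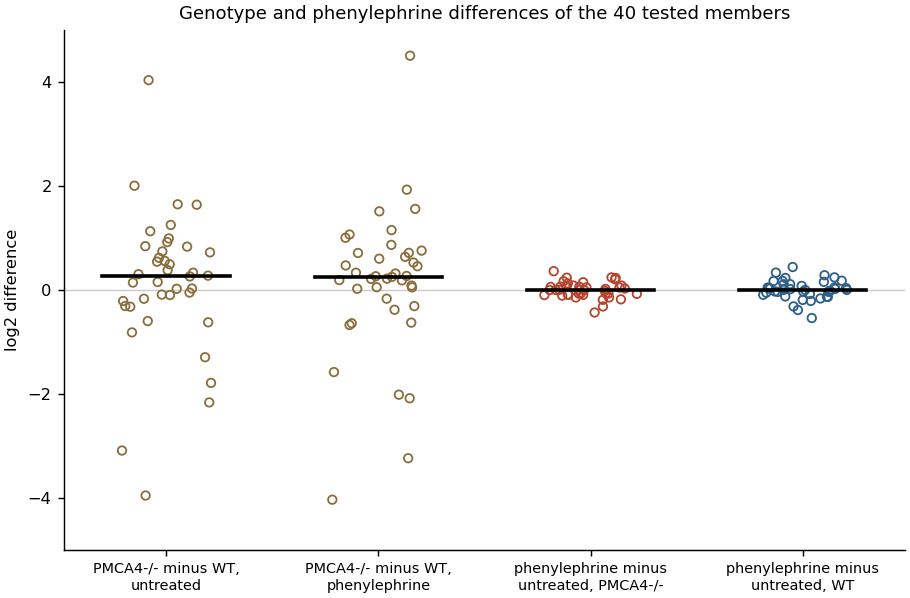
Log2 differences of the 40 tested members, 1 circle per member with a black line at the median, in 4 pairs of arrays: PMCA4-/- minus WT without and with phenylephrine, and phenylephrine minus untreated in PMCA4-/- and in WT cells (spread along the x axis only for legibility). The genotype differences run from -4.04 to 4.51, while the phenylephrine differences run from -0.54 to 0.44.

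The 8 members with the highest mean intensity, a ranking of probe sets and not of transcript levels, were Slit3, Sema3c, Slit2, Sema5a, Plxnb2, Plxna1, Plxna2 and Sema6d. The genotypes overlapped in Sema5a, and by these brightest probe sets none of the 8 was 2-fold apart in both pairs.

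**Figure D5:**
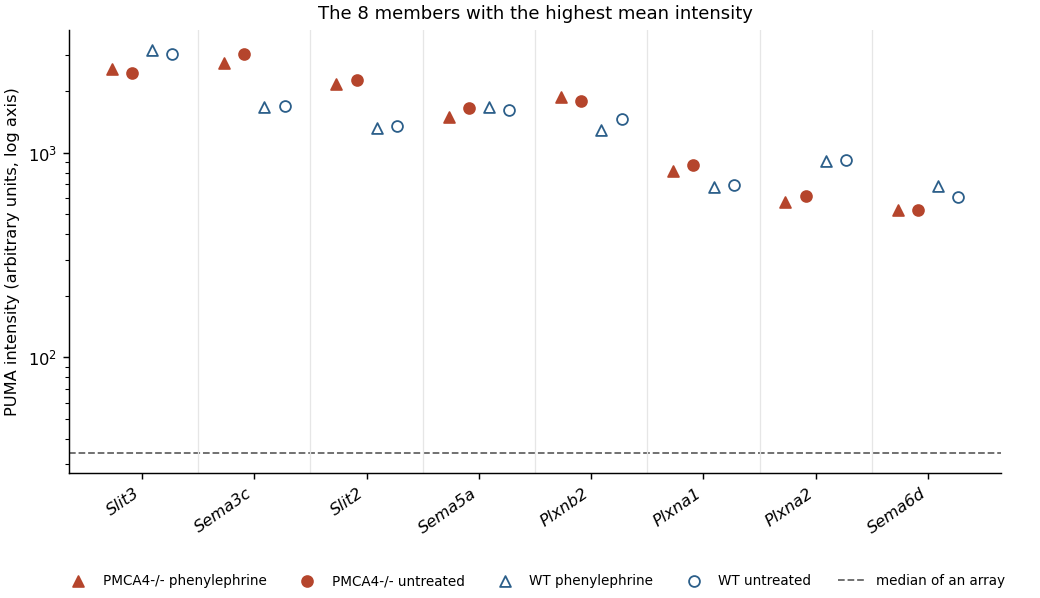
PUMA intensity (log axis) of the 8 members with the highest mean, with 1 symbol per array, filled for PMCA4-/- and open for WT, triangles for phenylephrine-treated and circles for untreated cells. The dashed line is the median of an array at 34.0, and Sema3c stands at 3029 and 2741 in PMCA4-/- against 1698 and 1672 in WT cells.

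The labelled cell type was checked with markers. All 10 fibroblast markers, among them Col1a2 and Dcn, passed the filter, with summed intensities of 89930 and 84320 in PMCA4-/- cells without and with phenylephrine, against 81840 and 86060 in WT cells. Of 8 cardiomyocyte markers 0 passed the filter, and they summed to 55.9 and 51.2 in PMCA4-/- cells against 79.4 and 74.9 in WT cells. Endothelial markers summed to 318 and 334 in PMCA4-/- cells against 311 and 325 in WT cells, with 2 of 10 tested and Cdh5, Pecam1 and Robo4, itself a member, not. The 10 Schwann and neural markers, whose cells use semaphorins and ephrins heavily, summed to 781 and 654 in PMCA4-/- cells against 417 and 421 in WT cells, with 4 tested. Of these Mbp had 233 and 219 in PMCA4-/- cells against 93.2 and 92.3 in WT cells, Ncam1 and Tubb3 had log2 differences of 0.60 to 0.98, and Sox10 and S100b did not pass the filter. The 10 macrophage and leukocyte markers summed to 2257 and 2506 in PMCA4-/- cells against 1580 and 1773 in WT cells, with 5 tested and Ptprc not passing the filter. Of the tested ones Csf1r had log2 differences of 1.31 and 1.45 and Cd14 of 0.54 and 0.54, while Lyz2 had 0.22 and 0.03, Emr1 had 0.02 and -0.31 and Laptm5 had -0.19 and -0.78. The 8 mesothelial and epicardial markers summed to 1014 and 1062 in PMCA4-/- cells against 699.6 and 682 in WT cells, with 2 tested that ran in opposite directions. Tbx18, which makes up most of that sum, had 854 and 929 in PMCA4-/- cells against 557 and 534 in WT cells, and Wt1 had 57.4 and 41.0 in PMCA4-/- cells against 91.9 and 87.7 in WT cells. The 9 mural markers summed to 8058 and 7455 in PMCA4-/- cells against 7844 and 8148 in WT cells, with 4 tested. Of these Rgs5 was lower at 30.3 and 34.4 in PMCA4-/- cells against 185 and 186 in WT cells. Notch3 had log2 differences of -0.60 and -0.84, Cspg4 of -0.07 and 0.39 and Pdgfrb of 0.08 and -0.10. Single markers of these lists thus differed between the genotypes, and their part in the differences of the guidance genes was not tested.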

How the data were processed

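RNA of cultured cardiac fibroblasts was measured on 4 Affymetrix arrays, 1 per genotype and treatment. The authors pooled RNA from 3 batches of cells, labelled cRNA from 6 µg of total RNA and deposited linear intensities of 45037 probe sets, one table from PUMA and another from Robust Multiarray Average (RMA). The paper names MOE430A arrays and 3 pools per genotype, and names MAS5, RMA and PUMA as the software. Versions of RMA and PUMA and a genome build: not given in the sources used here. A further table repeats the PUMA values, with 180148 of 180148 equal within a share of 0.0001. Columns with the authors' signed fold changes and probabilities of a positive log ratio were not used.

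Of the probe sets, 37818 had a single gene symbol, and 4 that joined a member with another symbol were left out. Intensities were log2-transformed, with values under their array's median raised to it. The limma fit used intensities that were not raised. Named were the members past 2-fold in the same direction in both genotype pairs, the 8 brightest, any at least 1.5-fold apart with phenylephrine in both genotypes, and up to 4 genes of each pathway list. Other members were given by family. Members, lists and tests were chosen with earlier results of these data known. The fit was limma 3.58.1 in R 4.3.3, with 2.93 prior degrees of freedom and Benjamini-Hochberg adjustment over 11462 genes, tested on simulated data. Python 3.11.15 with pandas 2.3.3 did the rest. Depth has no counterpart on arrays, and precision is limited by the number of arrays. Alternatives were RMA, median centring, quantile normalization, the median over probe sets, no floor, no filter, a filter at the 75th percentile, means of log2 values, other fold thresholds and an intensity trend in limma.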

Additional observations from a re-analysis of the deposited data

Results flagged for a closer look

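Plxna4, a plexin that receives class 3 and class 6 semaphorins, was singled out because its phenylephrine difference ran in opposite directions in the genotypes, by a log2 difference of more than 0.32 in each. It had 43.7 with phenylephrine against 33.7 without in PMCA4-/- cells, a log2 difference of 0.36, and 41.2 with phenylephrine against 59.9 without in WT cells, a log2 difference of -0.54. With RMA the same probe set had 50.1 with phenylephrine against 52.5 without in PMCA4-/- cells, and 50.5 against 57.2 in WT cells. Those log2 differences, -0.07 and -0.18, had the same sign, and all 4 RMA values were under the RMA median of an array. The difference between the genotypes was not tested, and the 4 PUMA values lie close to the median of an array.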

How the results depend on the processing

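The count of members at least 2-fold higher in both pairs, 6, was 3 with RMA (Efna5, Efnb2 and Sema3f), 2 with a filter at the 75th percentile, which left 15 members tested, and 12 with a 1.5-fold threshold. Of all 11462 tested genes 444 were higher in the main setting and 295 with RMA, and 187 of 7112 were with that filter. No share over all tested genes was taken at 1.5-fold. The count at least 2-fold lower, 5, was 2 with that filter and 3 with means of log2 intensities for choice and filter, where Robo1 and Sema6a dropped out, as did Sema3f among the higher. Over all tested genes 467 were lower in the main setting and 184 with that filter. With the means of log2 intensities 385 of 11385 genes were higher and 400 lower. With probe sets combined by their median 4 were higher, 3 of them shared (Efnb2, Epha4 and Sema4d lost, Sema3c gained), and 4 lower, without Sema6a. Of all 11462 tested genes 343 were then higher and 341 lower. The limma calls, 20 higher and 9 lower, were 13 and 5 when all probe sets of a gene were combined by their median. They were 8 and 5 with the stricter filter. Over all tested genes limma called 5752 in the main fit, 3153 with that median and 4804 of 7112 with that filter. With no filter the members' calls were 0 and 0, where limma called 0 of 20680 genes and 5409 had an unadjusted p below 0.05. Of 284 further values for 19 named members, 256 moved by little, 27 moved by more and 1 reversed: Sema6a in the untreated pair, -1.29 from its brightest probe set, was 0.001375 with the median over its 3 probe sets, 2 of which were dim. The cause of the other changes was not tested. The counts of 0 members past 1.5-fold with phenylephrine in both genotypes were 0 under each alternative run. The median log2 difference of the members ranged from 0.001375 to 0.28 without and from 0.01 to 0.27 with phenylephrine, lowest with no filter, which adds dim members at the array median. No paired analysis was possible because each condition had 1 array and no replicate number, though the limma fit held treatment as a term. Signal near the array median limits the 18 members that were not tested and the dim side of 6 of the 11 members past 2-fold.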
